A study of Drosophila melanogaster with 4 samples.

Results

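The regions described here are the clusters of acetylated histone H3 lysine 18 (H3K18ac) on 2L, the left arm of *Drosophila melanogaster* chromosome 2, in adult heads. A cluster is a region that the authors called as enriched over input chromatin. Members are the clusters with a score above 0 and a midpoint at or below position 20710390 of FlyBase release 5 (r5), which leaves out the 10% of the 23011544-bp arm next to the centromere. The replicate set, a list made by the authors from both ChIP replicates, had 1447 members of 8107 clusters in all. Replicate 1 had 1117 of 6380 and replicate 2 had 1077 of 6248.

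All samples were wild-type flies of the Oregon-R line Oregon-R-modENCODE at the stage labelled Mixed Adult, and no treatment, mutant or second tissue was included. The flies were kept in population cages on overlapping cycles of 22 days, and heads were separated from whole adults with sieves, so each library pools many animals whose sex and exact age are not given. The 2 ChIP libraries, made with an antibody lot labelled H3K18Ac (new lot), are accompanied by 2 input libraries with the same replicate numbers, which enter only through the authors' calls. No label states that the replicates stem from different fly collections. Their spread may therefore be technical.

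Acetylation of H3 neutralises the positive charge of lysine residues in the histone tail and is a mark of transcribed chromatin. In flies, H3K18 is acetylated by the CBP protein, the product of *nejire*, a coactivator that works at enhancers and promoters. The mark is usually seen at active promoters and enhancers. A fly head holds brain, compound eye, antenna, muscle and fat body, so a cluster can come from any of these tissues, and fewer marked cells cannot be told apart from less mark per cell. Regions are named by coordinates only, because the gene table at hand is of release 6 and not of r5. For the same reason no sequence is printed.

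Clusters covered 5.61 Mb of the 20.7 Mb of 2L in replicate 1 and 5.08 Mb in replicate 2, a mean of 25.8% ± 1.82 (SD, n = 2) of the sequence. The set covered 7.44 Mb, which is 35.9% of the sequence. Replicate 1 had 53.9 clusters per Mb, replicate 2 had 52.0 and the set had 69.9. The median width was 2539 bp in replicate 1 and 2546 bp in replicate 2, and the set had a median of 2363 bp. The middle 50% of clusters ran from 1736 to 5308 bp in replicate 1 and from 1721 to 5225 bp in replicate 2. The replicates thus had clusters of nearly the same typical size, and replicate 1 covered more sequence.

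Short clusters were many but held little of the marked sequence. Clusters under 2 kb made up 36.2% of the members in each replicate, with 11.5% of the covered bases in replicate 1 and 12.3% in replicate 2. Clusters of 10 kb or more, called broad below, numbered 131 for replicate 1, 107 for replicate 2 and 179 for the set. They were 10.8% ± 1.27 (SD, n = 2) of the clusters and held 41.7% ± 4.53 (SD, n = 2) of the covered bases. The replicates differed most at the far end of the range. Replicate 1 had 7 clusters of 50 kb or more with 6.96% of its covered bases, and replicate 2 had 1 with 1.05%. The set had 9 with 7.69%. These counts depend on where clusters are divided. With clusters under 500 bp apart joined, the widest stretches were 74.8, 73.3 and 65.9 kb in replicate 1. In replicate 2 they were 75.9, 62.3 and 51.5 kb.

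**Figure D1:**
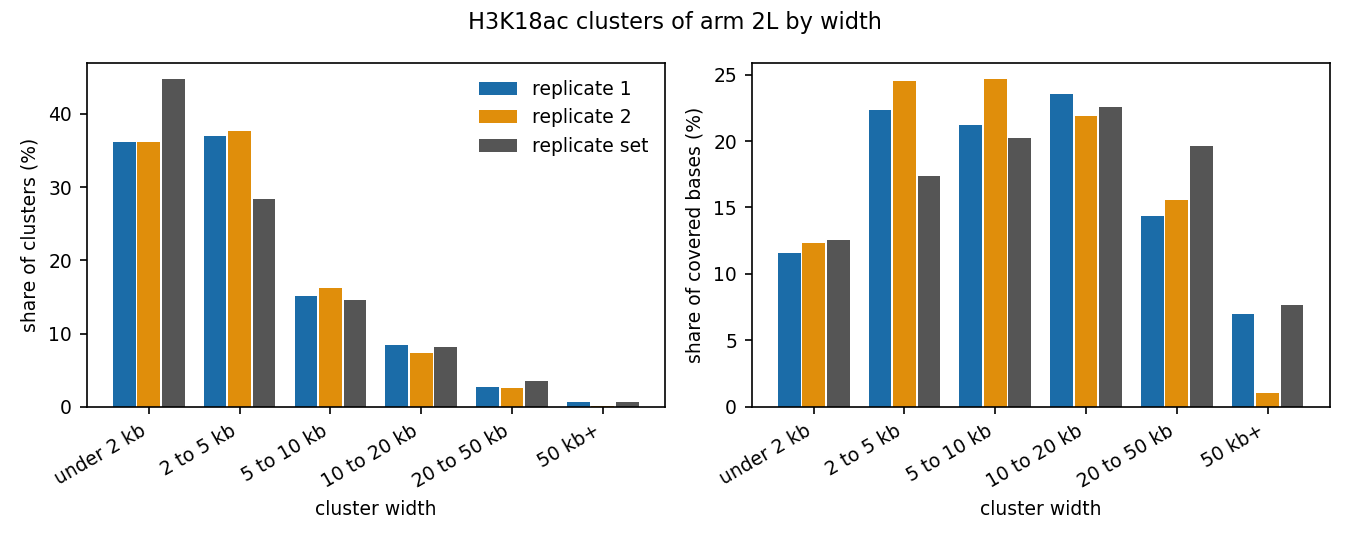
Share of the 2L clusters (left) and of the bases they cover (right), in percent, for 6 classes of cluster width. Bars stand for replicate 1, replicate 2 and the replicate set. Clusters under 2 kb are the most or next to most numerous class in each list and hold 11.5% to 12.5% of the covered bases.

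The authors' score rose with width in each list. The score is the value deposited with each region, and its scale is not stated, so ranks within a list are its safest use. Setting scores of different lists side by side assumes a common scale, which was not checked. In replicate 1 the median score was 0.485 for clusters under 2 kb and 0.606 for those from 2 to 5 kb. Clusters from 5 to 10 kb had 0.773, those from 10 to 20 kb 0.940 and those from 20 to 50 kb 0.986. Replicate 2 gave 0.463, 0.587, 0.735, 0.892 and 0.954 for the same classes. Clusters of 50 kb or more had 1.19 in replicate 1 (n = 7) and 1.06 in replicate 2 (n = 1). The order of the classes was therefore the same in both. Across clusters, which share their library and are not independent, width and score had a Spearman correlation of 0.805 in replicate 1 and 0.788 in replicate 2, with 0.670 for the set. Over all members replicate 1 had a median score of 0.588, replicate 2 one of 0.569 and the set one of 0.394. The middle 50% of scores ran from 0.507 to 0.735 in replicate 1 and from 0.477 to 0.704 in replicate 2.

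The widest domain of H3K18ac on 2L ran from 4229506 to 4314150, with a width of 84.6 kb and a score of 0.870 in the set. Replicate 1 covered 90.8% of it with 4 clusters scored between 0.537 and 0.948. Replicate 2 covered 92.3% with 5 clusters scored between 0.566 and 0.974. Its right edge was followed after 651 bp by the next set cluster. Slightly further to the right, from 4331322 to 4342916, lay one of the 10 clusters of highest score, so a wide and a strong cluster stood close together here.

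The domain from 7901146 to 7977612 measured 76.5 kb and had a score of 1.09 in the set. It held the widest cluster of both replicates. Replicate 1 called 73.3 kb of it, from 7904538 to 7977826, as 1 cluster with a score of 1.26. Replicate 2 called 53.2 kb, from 7924241 to 7977468, as 1 cluster with a score of 1.06. The right edge differed little between the lists. The left edge of this cluster lay about 20 kb further to the right in replicate 2, which had 2 other clusters before it. Together its 3 clusters covered 99.0% of the domain and began at 7901551. Replicate 1 had 2 clusters in the domain, and the first began at 7901633. The marked stretch thus began at nearly the same place in both, and the replicates divided it differently.

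The next domains of the set by width ran from 13036632 to 13103654 (67.0 kb, score 1.05), from 14185624 to 14251926 (66.3 kb, 0.890) and from 12456786 to 12519920 (63.1 kb, 1.01). After them came the domain between 3082494 and 3145060 (62.6 kb, 0.847), that between 18312020 and 18362990 (51.0 kb, 0.666) and that between 1884336 and 1935222 (50.9 kb, 1.10). The last of the 10 were 2883400 to 2934108 (50.7 kb, 1.15) and 17548060 to 17593706 (45.6 kb, 0.753). The 10 widest clusters together spanned 618 kb, or 8.31% of the bases covered in the set. Replicate 1 covered each of them to at least 87.1% and replicate 2 to at least 74.4%. The lowest values both belonged to the domain from 18312020, which was made of 6 clusters in each replicate and also had the lowest score of the 10. At the other end, the domains from 1884336 and from 2883400 were single clusters in replicate 1, with scores of 1.20 and 1.36. Replicate 2 divided the same domains into 3 and 2 clusters, with a highest score of 1.04 in the former and 1.02 in the latter.

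Broad clusters of the set were often several clusters in a single replicate. Of the 179, replicate 1 had 82 (45.8%) as 1 cluster, 45 as 2 and 52 as 3 or more. Replicate 2 had 66 (36.9%) as 1 cluster, 52 as 2 and 61 as 3 or more. None was without a cluster in either replicate. Gaps between neighbouring clusters were short in many places, under 500 bp in 181 of 1115 cases for replicate 1, in 150 of 1076 for replicate 2 and in 321 of 1446 for the set. When clusters closer than 500 bp were joined, 935, 927 and 1126 stretches were left in replicate 1, replicate 2 and the set. The widest stretch of the set was then from 13036632 to 13132296, 95.7 kb built of 3 clusters, ahead of the 84.6-kb domain, which gained nothing.

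The strongest cluster of 2L in both replicates ran from 6073852 to 6094214 in the set, with a width of 20.4 kb. Replicate 1 gave it a score of 1.99, replicate 2 gave 1.81 and the set 1.86. Each replicate called it as 1 cluster, from 6073655 to 6094175 in replicate 1 and from 6074174 to 6093796 in replicate 2. No other member of 2L scored higher in either replicate.

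The next 8 clusters by set score that both replicates held also had high scores in each replicate. They ran from 478036 to 490138 (set score 1.51, replicate 1 score 1.63, replicate 2 score 1.50), from 9682628 to 9699872 (1.50, 1.62 and 1.45 in the same order) and from 2747352 to 2755918 (1.44, 1.59 and 1.39). The cluster from 158456 to 183368 followed (1.43, 1.52 and 1.38), with those from 4331322 to 4342916 (1.42, 1.60 and 1.30) and from 835062 to 851248 (1.40, 1.52 and 1.38). The final members were 16266066 to 16287842 (1.35, 1.51 and 1.29) and 4994840 to 5009984 (1.32, 1.51 and 1.24). These 9 clusters were 8.57 to 24.9 kb wide and each was a single cluster in both replicates. In each of them replicate 1 had the highest score, replicate 2 the lowest and the set a value in between. They were picked by set score, which can favour this order. Among all 2L clusters matched one to one, replicate 1 scored higher in 380 of 557 pairs. The set lay between the replicates in 177 of 394 clusters matched in all lists. None of the 9 was among the 10 widest. This separation holds only for the top of the 2 rankings. Clusters of 50 kb or more still had the highest median score of any width class in each list. It was 1.19 in replicate 1, 1.06 in replicate 2 (n = 1) and 1.01 in the set.

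**Figure D2:**
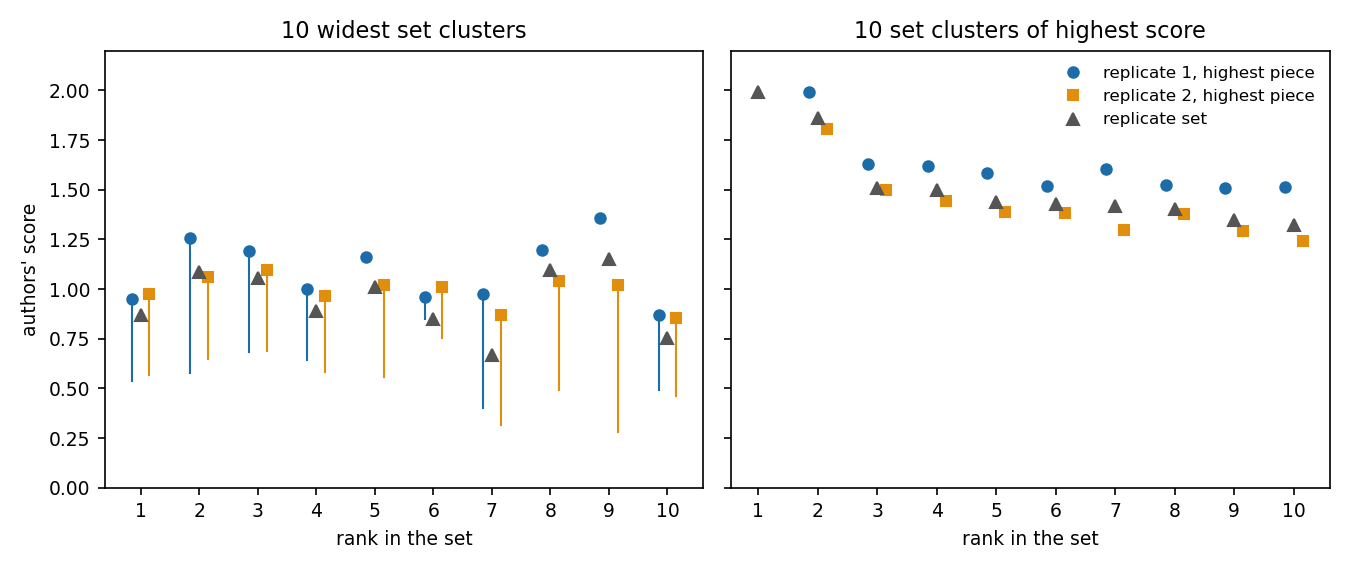
Authors' score of the 10 widest (left) and the 10 highest-scoring (right) set clusters of 2L, by rank in the set. Triangles are set scores, circles and squares the highest-scoring cluster of replicate 1 and replicate 2 inside the region, and lines reach down to the lowest-scoring one. The wide domains have scores of 0.666 to 1.15 in the set, and the highest-scoring cluster of the set has no symbol of either replicate.

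The cluster with the highest score of the set, from 7983032 to 7984046, differed from these in width. It was 1015 bp wide, had a score of 1.99 and overlapped no cluster of replicate 1 or replicate 2. No replicate cluster was under 1301 bp wide, so only a wider replicate cluster could have overlapped it. This narrow set cluster lay 5419 bp to the right of the 76.5-kb domain and 731 bp to the left of the next set cluster. Within 50 kb on either side of it, replicate 1 had 6 clusters, replicate 2 had 5 and the set had 9. Clusters covered 71.2% of that stretch in replicate 1 and 65.3% in replicate 2. A second narrow cluster of the set without a counterpart stood in the same stretch, from 8022812 to 8023824, with a width of 1013 bp and a score of 0.787. Another one, from 47348 to 48348, was 1001 bp wide with a score of 1.26 and stood near the telomere end of the arm. These last 2 regions, and the locus at 15.7 Mb described further on, were chosen after their values had been seen.

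At the low end, 18 set clusters had a score under 0.1, against 3 in replicate 1 and 2 in replicate 2. They were 1229 to 2751 bp wide, and 2 of the 18 were seen in both replicates. Of all 2L set clusters 44.9% were seen in both, and of those under 2 kb 6.18%. The lowest was the cluster from 12694468 to 12696070, with a score of 0.0054, which followed a stretch of 147181 bp without any set cluster. The next ones were at 13382286 to 13383936 (0.0187), 10841476 to 10842880 (0.0202), 6557534 to 6558958 (0.0251) and 7426664 to 7428126 (0.0313). Where a single replicate had a cluster at the middle 3 of these 5, its score was also low, between 0.0933 and 0.158. At the last of them replicate 2 had 0.106, and a replicate 1 cluster with a score of 1.23 reached over 1.23% of it. The narrowest clusters of the set were not the weakest. Those of 1001 to 1100 bp had a median score of 0.385 (n = 117), against 0.304 (n = 165) for 1301 to 1600 bp. Of the former 90.6% overlapped neither replicate, and of the latter 64.8%. The narrowest replicate cluster was 1301 bp wide, so a set cluster under that width could overlap only a wider replicate cluster.

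The replicates were compared for the places they marked. Of the replicate 1 clusters on 2L, 853 of 1117 (76.4%) overlapped a cluster of replicate 2, beside 78.7% for all clusters of that list. Of the replicate 2 clusters, 900 of 1077 (83.6%) overlapped one of replicate 1, beside 84.6% for its whole list. Both shares were near the value of the whole list. Counted in bases, 4.43 Mb was marked in both replicates, which is 78.9% of the bases in replicate 1 and 87.2% of those in replicate 2. The bases in both were 70.7% of the bases in either.

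Clusters seen in only one of the replicates were mostly narrow. Under 2 kb, 202 of 404 replicate 1 clusters (50.0%) had a counterpart in replicate 2, and 258 of 390 replicate 2 clusters (66.2%) had one in replicate 1. From 2 to 5 kb these shares were 85.2% and 88.9%, and from 5 to 10 kb 168 of 169 and 174 of 174. All broad clusters had a counterpart. A wide cluster meets the rule of 1 shared base more easily, so the rise of these shares with width follows in part from the rule. The 264 clusters seen in replicate 1 only, with a median of 1653 bp, made up 8.75% of its covered bases. The 177 seen in replicate 2 only, with a median of 1623 bp, made up 6.23%. Their median scores of 0.514 and 0.501 were below the 0.636 and 0.593 of the shared clusters.

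The widest cluster seen in replicate 1 only ran from 7568539 to 7575877, over 7339 bp with a score of 0.704. The set called it as well, with a score of 0.508. The other widest ones of replicate 1 were at 6367922 to 6372526, 2369873 to 2374301, 12008413 to 12012809 and 10047142 to 10051327, with scores from 0.569 to 0.662. The set covered 42.8% to 90.7% of these 4. In replicate 2 the widest were 17816054 to 17820830 (4777 bp, score 0.590) and 8648113 to 8652456 (4344 bp, 0.739). They were followed by 10567177 to 10570783 (0.674), 19585974 to 19589536 (0.356) and 19800623 to 19803828 (0.561). The set covered each of these 5 to at least 98.8%.

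The strongest clusters seen in one replicate only came from a single locus. In replicate 1 this was the cluster from 15702176 to 15705736, with a score of 0.977, and in replicate 2 the cluster from 15678543 to 15680240, with a score of 0.938. Within 50 kb of the former, replicate 1 had 6 clusters with scores from 0.687 to 1.03, and replicate 2 had 9 with scores from 0.597 to 1.02. The set had 8 clusters there, among them 15654368 to 15676274 (21.9 kb, 0.746) and 15687560 to 15709814 (22.3 kb, 0.802). Replicate 1 covered 37.4 kb there, replicate 2 covered 29.9 kb and the set 57.4 kb. The same locus also held 15710224 to 15711274 (0.665) and 15714688 to 15717612 (0.627), which are among the 5 highest-scoring set clusters seen in neither replicate. All lists thus marked this locus, but they differed in how much of it they covered and in where clusters began and ended. Replicate 2 had no cluster between 15700190 and 15707205, where the replicate 1 cluster with a score of 0.977 lay.

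Clusters matched one to one gave a finer comparison. On 2L, 557 clusters of replicate 1 overlapped exactly 1 cluster of replicate 2 that overlapped no other. Across these pairs the correlation of scores was 0.856 (Pearson) and 0.769 (Spearman), and that of widths was 0.813 (Spearman). The pairs share their 2 libraries and are not independent. Replicate 1 scored higher in 380 of these 557, with a median of 0.642 against 0.588 and a median difference of 0.0651. The differences of single pairs had an SD of 0.134. The edges were close, with a median distance of 259 bp between left ends and 250 bp between right ends. Left ends differed by more than 1 kb in 17.1% of the pairs and right ends in 14.9%. The pair with the largest excess in replicate 1 was at 12002882 to 12007419, with scores of 1.27 and 0.691. The pair with the largest excess in replicate 2 was at 3696943 to 3698441, with 0.294 in replicate 1 and 0.576 in replicate 2.

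**Figure D3:**
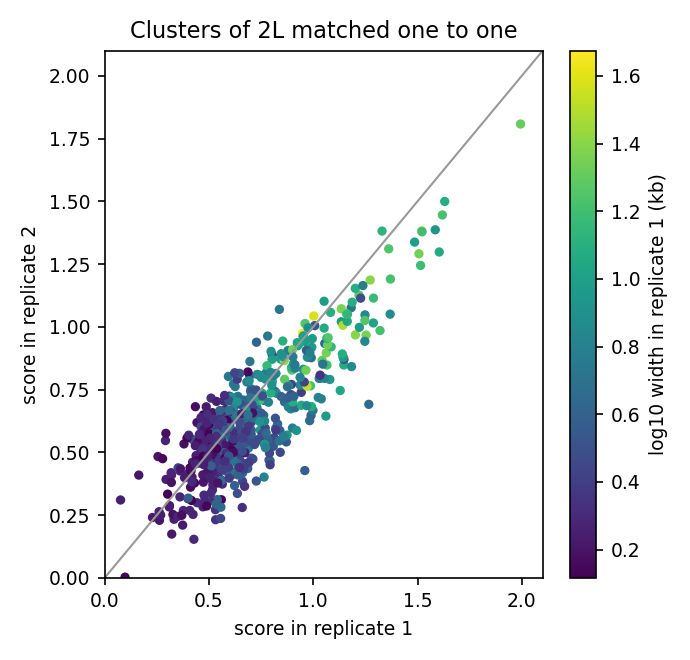
Score in replicate 1 (x axis) and replicate 2 (y axis) of 557 clusters of 2L matched one to one. Each point is a pair, its colour gives the log10 of the width in replicate 1 in kb, and the grey line marks equal scores. Points run along the line, with 380 of them on the replicate 1 side.

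In the replicate set, 650 clusters (44.9%) overlapped clusters of both replicates and held 80.8% of the covered bases. Their median width was 5903 bp, with a median score of 0.555. Another 217 were shared with replicate 1 alone and 126 with replicate 2 alone, with median widths of 1943 and 1957 bp. The remaining 454 (31.4%) overlapped neither, beside 29.3% for the set as a whole. Their median width was 1293 bp, below the 1301 bp of the narrowest replicate cluster, and they made up 8.85% of the covered bases. Their median distance to the nearest set cluster seen in both replicates was 6120 bp, and 52 of them lay within 500 bp of one.

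The widest set cluster seen in neither replicate ran from 18217906 to 18222462, over 4557 bp with a score of 0.400. It was followed by 6601562 to 6605736 (4175 bp, 0.346), 1589570 to 1593406 (3837 bp, 0.372), 14417800 to 14421470 (3671 bp, 0.328) and 1411130 to 1414758 (3629 bp, 0.301). Of these 5, 4 had another set cluster within 500 bp on at least one side. Of 394 clusters matched one to one in all 3 lists, the set had the lowest score in 217, a score between the replicates in 177 and the highest in 0.

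Long stretches of 2L carried no cluster. The longest in the set ran from 11273139 to 11524405, over 251 kb. Replicate 1 had no cluster from 11273065 to 11524369 and replicate 2 none from 11251849 to 11525184, so the right edge was within 1 kb in all lists and the left edge lay further out in replicate 2. The next stretches of the set measured 214 kb, from 15275711 to 15489739, and 203 kb, from 5342827 to 5545905. They were followed by one of 174 kb between 560725 and 735175 and one of 164 kb between 16059845 and 16224337. Apart from 36 bp at the end of the longest and 12 bp at the start of the next, no base of these 5 was in a cluster of either replicate. Other stretches were free in both replicates but not in the set. From 14689639 to 14917897 replicate 1 had none, and replicate 2 had none from 14689558 to 14917749. The set had 4 clusters inside, with a median width of 1420 bp and a highest score of 0.380. Replicate 1 also had none from 4457107 to 4694442, where the set had 3 clusters with a highest score of 0.378 and replicate 2 had 1 from 4475543 to 4476860 with a score of 0.442. Stretches over 100 kb numbered 20 in each replicate and 13 in the set. Of the uncovered bases between clusters they held 21.6% in replicate 1, 21.2% in replicate 2 and, for the set, 14.7%. Mappability was not measured, and unmappable sequence would appear as free of clusters.

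Coverage varied several-fold along the arm. Among 41 windows of 500 kb it ran from 6.63% to 46.5% in replicate 1 and from 6.45% to 41.9% in replicate 2. The least covered window was 10000001 to 10500000, with 6.54% ± 0.122 (SD, n = 2). It held 16 clusters in replicate 1 and 14 in replicate 2, and none of them was broad. Next came 15000001 to 15500000 with 10.6% ± 1.78 and 11000001 to 11500000 with 12.2% ± 2.74 (SD, n = 2 each). Both of these include much of a long free stretch. The most covered windows were 9000001 to 9500000 with 43.4% ± 2.18, 14000001 to 14500000 with 43.2% ± 4.62 and 1500001 to 2000000 with 39.3% ± 2.08 (SD, n = 2 each). The window from 14000001 holds the 66.3-kb domain and the one from 1500001 the 50.9-kb domain. By the mean of the replicates the window from 9000001 was the most covered, whereas in replicate 1 it was the one from 14000001 and in the set the one from 1500001. In the window from 9000001 replicate 1 had 22 clusters and replicate 2 had 30, of which 6 were broad in each.

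**Figure D4:**
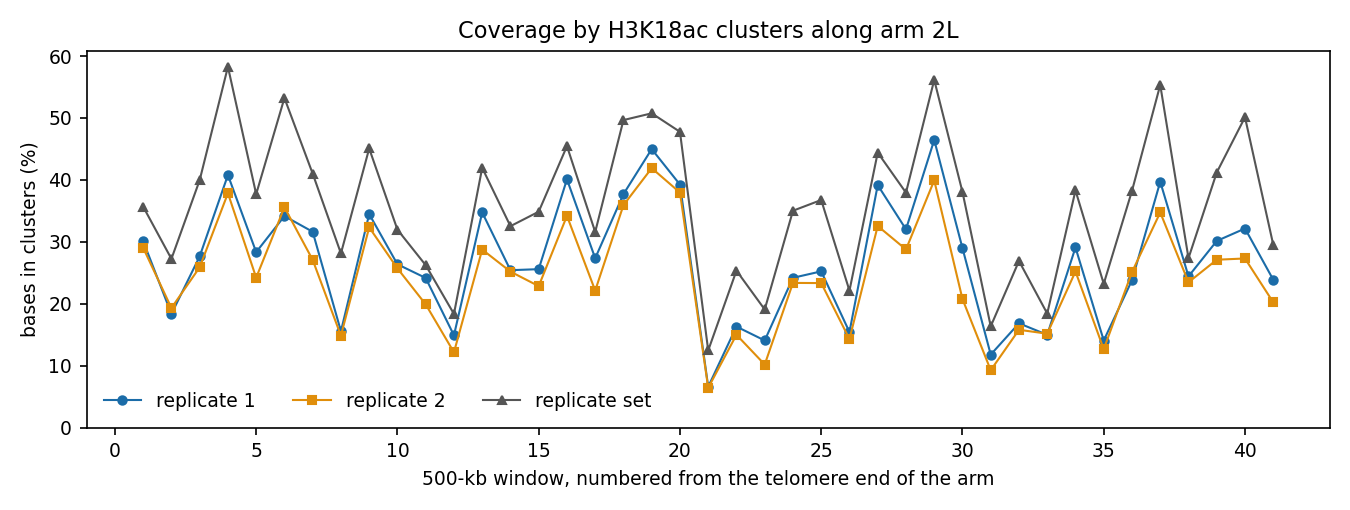
Share of bases in clusters, in percent, in 41 windows of 500 kb along 2L, numbered from the telomere end. Lines and symbols stand for replicate 1, replicate 2 and the replicate set. Window 21 is the lowest in all lists (6.63% and 6.45% in the replicates, 12.5% in the set) and follows 3 densely covered windows.

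The replicates had the same profile along the arm. Across the 41 windows, which share both libraries, the correlation of coverage was 0.974 (Pearson) and 0.962 (Spearman). Replicate 1 was covered more in 37 windows and replicate 2 in 4. Coverage was tied more closely to the number of broad clusters in a window (Pearson 0.784 in replicate 1 and 0.830 in replicate 2) than to the number of all clusters (0.628 and 0.713). Each broad cluster adds many covered bases, so this follows in part by construction. Neighbouring windows were alike only weakly, with a Pearson correlation of 0.173 between the mean coverage of a window and that of the next. When the arm was divided into 3 equal parts, coverage was 26.9% ± 1.47 in the distal, 26.1% ± 2.01 in the middle and 24.3% ± 1.98 in the proximal part (SD, n = 2 each). Coverage fell in the same order in both replicates, from 28.0% over 27.6% to 25.7% in replicate 1 and from 25.9% over 24.7% to 22.9% in replicate 2. The set did not share this order, since its proximal part (35.4%) was not the least covered one. The SD above includes the higher coverage of replicate 1 in each of the 3 parts, and with 2 replicates this order was not tested. Clusters seen in one replicate only were spread along the arm. Over all members of 2L they were 23.6% of the clusters in replicate 1 and 16.4% in replicate 2. The window from 19500001 to 20000000 had 17 of 44 in replicate 1 and 13 of 39 in replicate 2. The window from 9000001 had 0 of 22 and 0 of 30. Both windows were chosen for this contrast after their values were seen.

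The limit at position 20710390 cut next to a strong region. The last set cluster inside was 20696564 to 20697930, with a score of 0.345 and no counterpart in either replicate. The first outside was 20702012 to 20723378, 21.4 kb wide with a set score of 1.48 and scores of 1.33 in replicate 1 and 1.62 in replicate 2. At the score limit of 0, the member with the lowest set score had 0.0054, and the closest excluded record, from 18442142 to 18443490, had -0.00027.

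The arm was set beside 2R, 3L, 3R and the X, each without the 10% next to its centromere. Coverage of 2L (25.8% ± 1.82) was lower than that of 2R (29.2% ± 2.31), 3L (27.2% ± 1.98) and 3R (27.2% ± 1.82) in each replicate (SD, n = 2 each). On the X it was 26.3% ± 0.175. The X was below 2L in replicate 1 (26.4% against 27.1%) and above it in replicate 2 (26.1% against 24.5%). With 2 replicates the smallest two-sided exact paired permutation p is 0.5, so no difference between arms can pass a threshold of 0.05 by that test, and none is called particular to 2L. Replicate 1 had 27.1% on 2L against 28.6% on 3L and 28.5% on 3R, and replicate 2 had 24.5% against 25.8% and 25.9%. Broad clusters held 41.7% ± 4.53 of the covered bases on 2L, between the X (36.5% ± 1.51) and 3L (48.6% ± 2.11). The values were 41.0% ± 3.15 for 2R and 44.3% ± 2.87 for 3R. The median score of 2L minus that of the other autosomal arms together was -0.0123 in replicate 1 and 0.0044 in replicate 2. The replicates thus gave opposite signs, and the scores of 2L could not be told apart from those of the other autosomal arms. The X had a median score of 0.710 ± 0.0157, above the 0.578 ± 0.0132 of 2L in both replicates. The longest cluster-free stretch of 2L (262 kb ± 15.6) was close to that of 2R (263 kb ± 0.905), and that of 3R was longer (351 kb ± 2.16).

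**Figure D5:**
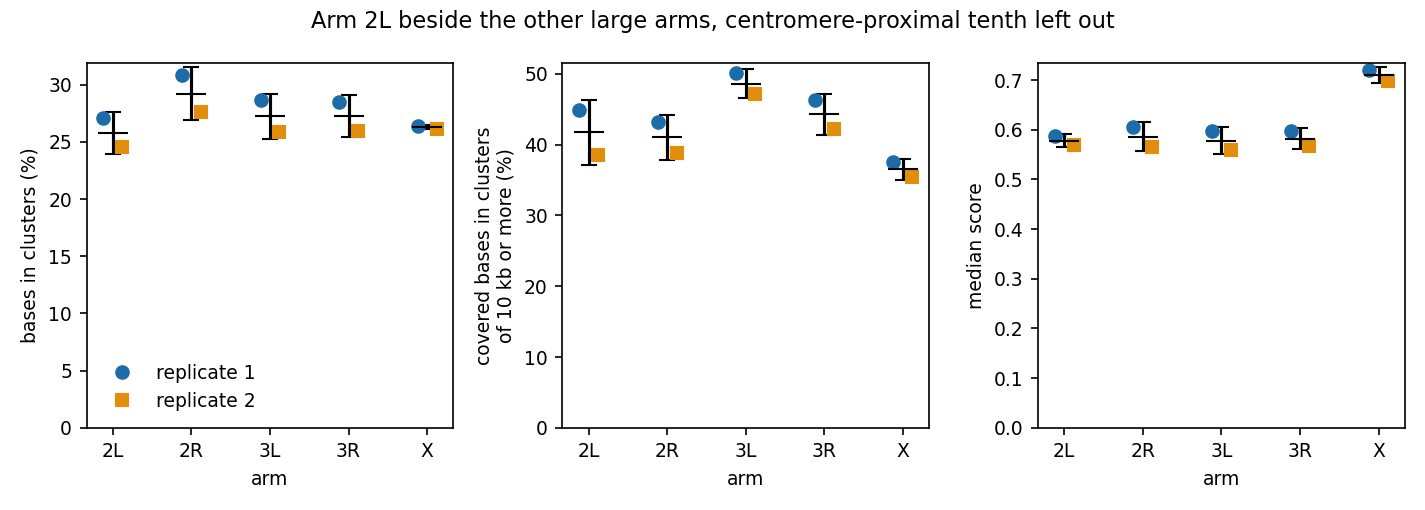
Coverage by clusters (left, percent of bases), share of covered bases in clusters of 10 kb or more (middle, percent) and median score (right) for 2L and 4 other arms, each without its centromere-proximal 10%. Circles and squares are replicates 1 and 2, and black bars the mean ± SD (n = 2). The X stands apart in median score, with 0.710 against 0.578 on 2L.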

How the data were processed

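The 3 deposited lists used here give regions of enrichment or depletion on FlyBase r5, per the file headers, with 1 score per region whose scale is not stated by the authors. The submitters' processing notes list Bowtie 0.12.7 and give it no role. Not given in the sources used here are the region caller, its threshold and whether the set pools reads. Input libraries enter only through the authors' calls. The lists hold no reads, so depth is unknown and counting intervals cannot be given.

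The software was Python 3.11.15 with pandas 2.3.3, numpy 2.4.6, scipy 1.17.1 and matplotlib 3.10.9. A cluster counted as shared if 1 bp or more of it lay in a cluster of the other list. Interval counting was tested by comparing the replicate 1 clusters of 2L with a random subset of themselves, where every match is exact. Partial overlaps and split clusters were not covered by that test. The arm 2L and the tests were chosen with earlier results of these data known. Named regions follow a rule: the 10 widest and 10 highest-scoring set clusters, the 5 lowest, the 5 widest seen in 1 replicate or in neither, the 5 longest stretches without a set cluster, the 3 most and least covered windows, the neighbours of the position limit and all depleted records. Cluster-free stretches of a single replicate, the pairs with the largest score differences and the highest-scoring clusters seen in 1 list only were chosen after their values were seen. So were the windows contrasted for clusters seen in one replicate only.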

Additional observations from a re-analysis of the deposited data

Results flagged for a closer look

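Regions marked as depleted entered no comparison of the report. On 2L the replicate set had 6 of them and replicate 2 had 1, and they are given as values in data not otherwise used. The 6 ran from 818670 to 820152 (score -0.0099), 6967388 to 6969084 (-0.0949), 10238942 to 10240440 (-0.0146), 10387588 to 10389270 (-0.0340), 18442142 to 18443490 (-0.00027) and 19518480 to 19519948 (-0.0078). At 10387588 both replicates had an enriched cluster instead, with scores of 0.0977 in replicate 1 and 0.0027 in replicate 2. At 18442142 replicate 1 had one with 0.0094, and at 19518480 replicate 2 had one with 0.104. The depleted region of replicate 2, from 10262426 to 10263903 (-0.0029), was 99.6% covered by an enriched set cluster with a score of 0.0502. The least covered window of the arm, from 10000001 to 10500000, held 3 of the 7 depleted records. These were the set records from 10238942 and from 10387588 and the record of replicate 2. A link between depleted records and low coverage was not tested.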

How the results depend on the processing

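Of 30 alternative values, 17 were classed as the same as the reported value and 13 as moved. The first class was wide. It includes the fall from 1447 to 1126 set clusters on joining and the change of sign of the score difference given below. The alternatives for the widest set cluster and the number of broad set clusters were chosen after seeing the data. Joining clusters under 500 bp apart raised the median width from 2542.5 to 2995.5 bp and the share of bases in broad clusters from 41.7% to 48.9%. The latter was 64.6% when broad meant 5 kb or more. Keeping the 50% of clusters with the higher score left 724 of the 1447 set clusters and a coverage of 20.4%, by construction, and raised the shared clusters to 92.7% in replicate 1 and 93.1% in replicate 2. It also lengthened the longest free stretch of the set to 397 kb. With a reciprocal overlap of at least 50% the shared clusters were 54.5% and 56.5%. Of the 454 set clusters seen in neither replicate, 224 had the width of the narrowest replicate cluster (1301 bp) or more. The SD of coverage over windows was 9.24 percentage points, and 13.5 with 250-kb windows. Single replicates gave a coverage of 24.5% to 27.1%, a median width of 2539 to 2546 bp, a broad share of 38.5% to 44.9%, a longest free stretch of 251 to 273 kb, an SD over windows of 8.88 to 9.72 and a score difference of 2L from the other autosomal arms of -0.0123 to 0.0044. That difference, -0.00396 on average, was 0.00596 within width bins, so its sign was not stable. Depth is unknown, and a region found in a single list may have been missed elsewhere. Apart from values that follow by construction, the cause was not tested. The ChIP and input libraries share numbers. No paired analysis was possible because input has no list of its own.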
